A study of Flaveria bidentis and Flaveria robusta with 100 samples.

Results

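The genes described here are those that loosen or remodel the plant cell wall: expansins, xyloglucan enzymes, the enzymes and inhibitors that act on pectin, and cellulose synthases with their relatives. They were taken as the rows of the deposited table whose description holds the words expansin, xyloglucan, pectin, pectate or cellulose synthase and whose mean over the 50 time-point means was at least 1 RPM, the reads of a gene scaled to a common library total. Of 21869 rows, 235 matched and 129 reached that level. The other 106 stayed below it, 72 of them at 0 in every mean. The lowest members inside the limit were AT3G07970 with a mean of 1.11 RPM and AT3G26610 with 1.15 RPM, and the nearest rows outside it were AT2G47030 with 0.76 RPM and AT1G56710 with 0.71 RPM. By description the 129 members split into 36 pectin lyase-like proteins, 25 pectin methylesterases or members of the invertase and pectin methylesterase inhibitor superfamily, 20 xyloglucan enzymes, 16 expansins, 16 cellulose synthase-like proteins, 7 cellulose synthases, 7 pectin acetylesterases and 2 pectate lyases.

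RNA of mature leaves was sequenced from Flaveria bidentis, a plant with C4 photosynthesis, and from Flaveria robusta, a C3 relative, to ask how the circadian clock differs between the photosynthetic types. Plants were raised in a greenhouse (36 days) and moved for 6 days to a chamber on short days, whose 10 h light phase was kept at 22 °C and whose 14 h dark phase was kept at 20 °C. Leaves were then taken every 4 h through 2 such days (LD) and through 2 days of constant light with a last sample at the start of a day 3 (LL). Time is given as zeitgeber time (ZT), the hours after lights on or after the matching hour in LL. Each species gave 12 LD and 13 LL time points with 2 biological replicates per time point, which makes 100 samples in 50 groups, and the value of each group is the authors' mean RPM.

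The growing plant cell wall is a mesh of cellulose fibres tied by xyloglucan and set in pectin. Expansins loosen the bonds between these polymers without cutting them, whereas xyloglucan endotransglucosylase/hydrolases (XTHs) cut xyloglucan and join it again. Pectin methylesterases strip methyl groups from pectin, inhibitor proteins block them, lyases then cleave the chain, pectin acetylesterases remove acetyl groups, and cellulose synthases spin new cellulose at the plasma membrane. These steps set how far a leaf cell can expand and how stiff its wall stays once it is mature.

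The leaf label was met by its markers. The 3 mesophyll markers tested, LHCA1, LHCA3 and RCA, summed to between 7810.5 and 23734 RPM over the F. bidentis LD means and between 12634.5 and 45396.5 RPM over those of F. robusta. They went opposite ways between the species. Over all means LHCA1 averaged 5486 RPM in F. bidentis and 2396 RPM in F. robusta, and LHCA3 averaged 4460 and 2392 RPM. RCA averaged 6253 RPM in F. bidentis and 22550 RPM in F. robusta, so the larger F. robusta sum came from RCA. A flatter make-up, with under 11% of the RPM in the 10 highest genes, was found in 3 F. bidentis means (ZT12 and ZT16 of LD day 1 and ZT12 of LD day 2) and in 6 F. robusta means. Results that move without the 6, or without all 9, are given below. Reads of both species carry Arabidopsis gene identifiers, so a level can also depend on how well a Flaveria gene matched. Because whole leaves were sampled, fewer cells of a type and less RNA per cell cannot be told apart. LL always followed LD, so constant light cannot be told apart from the day of sampling or plant age. In LD the dark phase was also the cooler one, at 20 °C against 22 °C, so darkness and temperature cannot be told apart there. The temperature of the lit nights in LL is not given here.

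In LD the share of wall genes that differed between the species was near that of all genes, and all the expansins that passed were higher in F. bidentis. With limma on log2(RPM + 1) and adjustment over all genes tested, 89 of 129 members (69%) passed in LD, against a background of 64.8% of 13563 genes. Of these, 48 were higher in F. bidentis (37.2%, background 32.3%) and 41 were lower (31.8%, background 32.5%). After TMM scaling, which removes shifts shared by most genes, the member counts in LD were the same, against backgrounds of 66.7%, 34.3% and 32.5%. In LL 96 members passed (74.4%, background 67.8%), 54 of them higher in F. bidentis (41.9%, background 26%) and 42 lower (32.6%, background 41.8%). Across both regimes 46 members were higher in F. bidentis in each, 33 were lower in each, and 1 passed in opposite directions, the inhibitor superfamily gene AT5G09760. These are 35.7%, 25.6% and 0.775% of the members, against 22.2%, 29.7% and 0.324% of all genes. The median log2 difference of all genes in LL was -0.13, and after TMM scaling 94 members passed in LL (background 71.3%), 61 higher and 33 lower, against backgrounds of 35.4% and 35.8%.

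**Figure D1:**
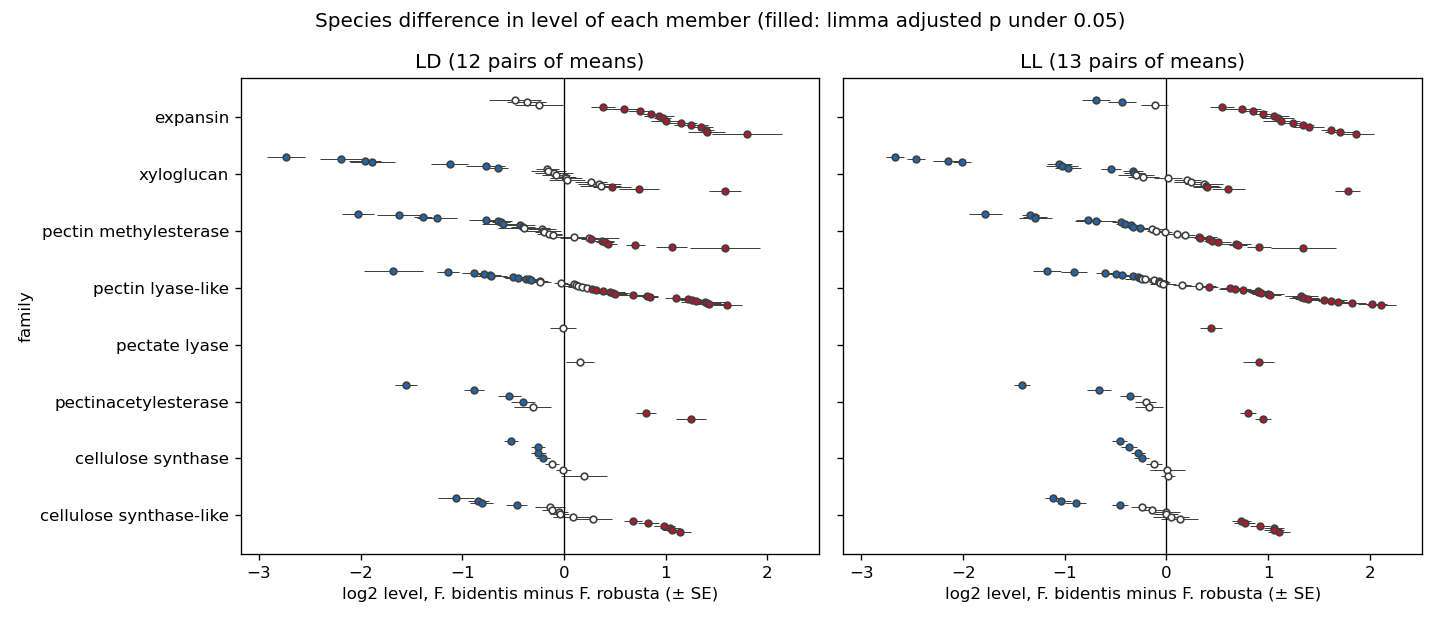
Log2 difference in level, F. bidentis minus F. robusta, of each of the 129 members by family (one point per member, bars ± SE), over 12 pairs of LD means on the left and 13 pairs of LL means on the right. Filled points passed limma's adjusted p of 0.05; 13 of 16 expansins lie to the right of 0 and passed in each regime, while the lowest point of all is the xyloglucan enzyme XTH16 at -2.73 in LD.

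Of the 16 expansins, 13 were higher in F. bidentis in LD and none passed as lower, and the median log2 difference over the family was 0.95, while that of all genes was close to 0. In LL 13 were again higher and 2, expansin A14 and expansin-like A3, were lower, with a family median of 1.08. After TMM scaling the family counts were the same and the medians were 0.97 in LD and 1.21 in LL. The summed expansin level ran from 421.5 to 1653 RPM (median 740) over the F. bidentis LD means and from 191 to 880.5 RPM (median 448.75) over the F. robusta LD means. Those 2 ranges overlapped. In LL they did not, at 457 to 959.5 RPM in F. bidentis and 198 to 449.5 RPM in F. robusta.

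Expansin A10 (AT1G26770) ranged from 106.5 through a median of 211.5 to 482.5 RPM over the F. bidentis LD means and from 57.5 through 129.25 to 281 RPM over those of F. robusta. It was higher in F. bidentis at 11 of 12 matched LD time points and at 13 of 13 in LL, with log2 differences of 0.75 (SE 0.12, adjusted p 3.55e-05) and 1.06 (SE 0.14, adjusted p 2.21e-06). Expansin A8 (AT2G40610) averaged 231.5 RPM in F. bidentis and 158.7 RPM in F. robusta in LD, a smaller step of 0.59 log2 units (adjusted p 0.00782), with 10 of 12 pairs in that direction. Expansin A4 (AT2G39700) had groups that nearly part. It ranged from 51.5 through 79 to 177 RPM in F. bidentis and from 19.5 through 29.5 to 52.5 RPM in F. robusta, a log2 difference of 1.40 (SE 0.08, adjusted p 4.47e-10) in LD and of 1.62 in LL. All 12 LD pairs and all 13 LL pairs were higher in F. bidentis.

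Expansin A15 (AT2G03090) averaged 101.4 RPM in F. bidentis and 38.92 RPM in F. robusta in LD (log2 difference 1.15, adjusted p 8.67e-06) and 111.3 RPM in F. bidentis against 31.15 RPM in F. robusta in LL (1.70, adjusted p 8.6e-09). Its lowest LL mean in F. bidentis was 40 RPM, just above the highest in F. robusta of 39.5 RPM, so the groups did not overlap in LL. Expansins A6 and A5 were also higher at each of the 12 LD time points, by 0.97 and 1.35 log2 units. Expansin A14, which belongs to the same alpha group, averaged 2.15 RPM in F. bidentis and 4.31 RPM in F. robusta in LL (-0.69, adjusted p 0.000173). Expansin-like A3 had 1 exceptional value of 21.5 RPM in F. robusta at ZT16 of LD day 2. Expansins A8, A2 and A17, and likewise A10 with A8, A9 and A17, ran in parallel over time in both species (r above 0.9 over 25 means), so their reads may be shared and they are not separate evidence.

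**Figure D2:**
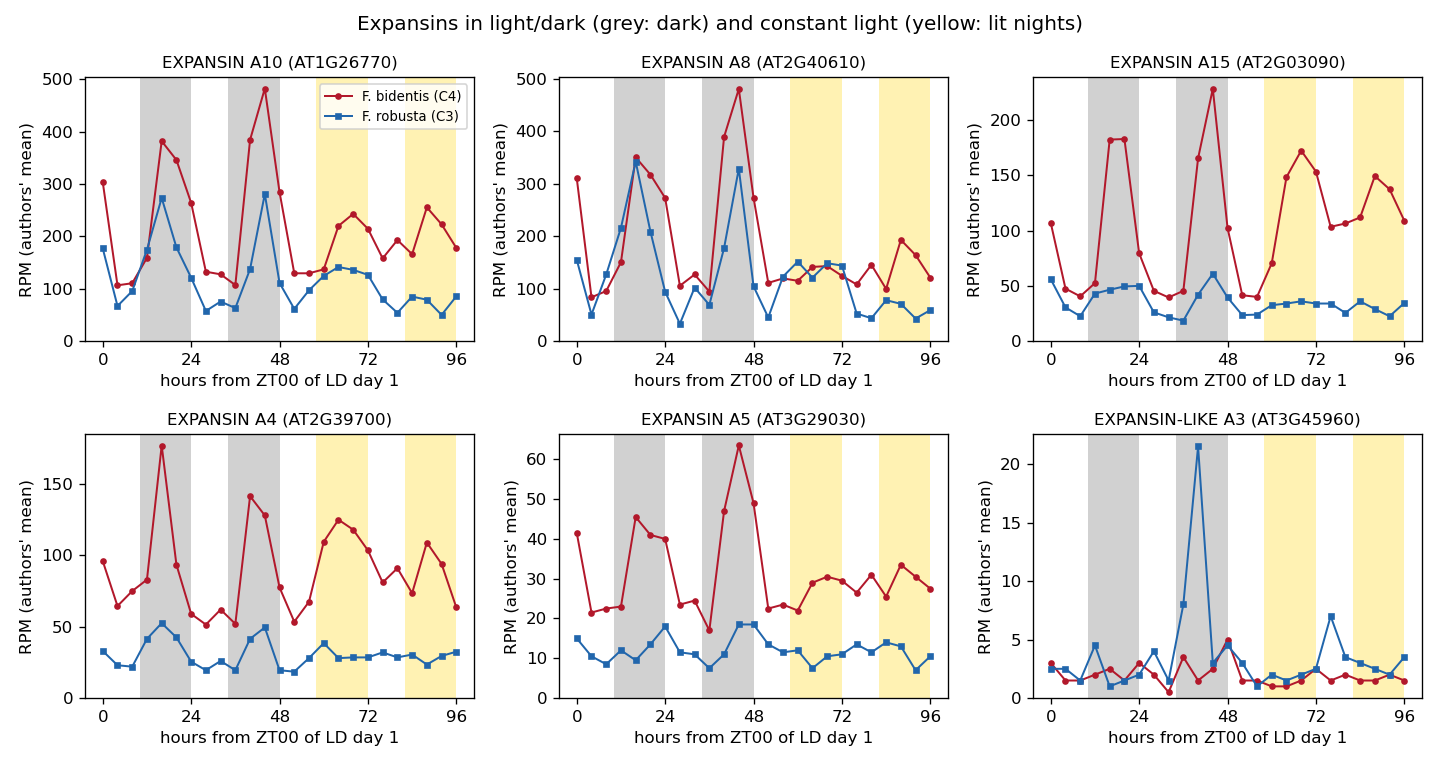
Authors' mean RPM of 6 expansins against hours from ZT00 of LD day 1, F. bidentis in red circles and F. robusta in blue squares, with dark nights in grey and the same hours in LL in yellow. F. bidentis lies above F. robusta at all 25 time points in A15 and A4, whereas expansin-like A3 has a single high value of 21.5 RPM in F. robusta.

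Markers of single cell types also differed between the species. Both epidermis markers tested were higher in F. bidentis in LD, with the cuticle transporter ABCG11 at a log2 difference of 1.06, and their sum ran from 142.5 to 312.5 RPM in F. bidentis and from 66 to 192.5 RPM in F. robusta. Of 3 markers of dividing cells, 2 were higher in F. bidentis, and of 6 xylem markers 1 was higher and 3 were lower. Of 4 guard cell markers 1 was higher and none lower, and of 3 mesophyll markers 2 were higher and 1 lower. Among all genes 32.3% were higher in F. bidentis in LD and 32.5% lower. None of the markers tested averaged 0 in either species, and their part in the expansin result was not tested.

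Among the xyloglucan enzymes single XTHs stood far apart between the species, in both directions. Of 20, 3 were higher and 7 lower in F. bidentis in LD (family median -0.09), where 32.3% of all genes were higher and 32.5% lower, and 4 were higher and 10 lower in LL (family median -0.31, or -0.16 with 6 higher and 8 lower after TMM scaling). XTH16 (AT3G23730) ranged from 8.5 through a median of 14.5 to 33.5 RPM in F. bidentis and from 70 through 111.5 to 240.5 RPM in F. robusta in LD. The ranges stayed apart by more than the whole spread in F. bidentis, and the log2 difference was -2.73 (SE 0.19, adjusted p 7.44e-09), with -2.67 in LL. XTH21 (AT2G18800) likewise kept its groups apart, with 1.5 to 5.5 RPM in F. bidentis and 8 to 25 RPM in F. robusta in LD (-1.96, adjusted p 2.16e-08). XTH16 and XTH21 ran in parallel over time, so their reads may be shared.

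The gene described as xyloglucan endotransglycosylase 6 (AT4G25810) averaged 10.38 RPM in F. bidentis and 45.21 RPM in F. robusta in LD (-1.89, adjusted p 2.47e-06) and was lower in F. bidentis at each of the 13 LL time points (-2.46). Its LD ranges touched, at 4.5 to 21 RPM in F. bidentis and 18 to 148 RPM in F. robusta. XTH8 (AT1G11545) turned this round, with 12 through 23 to 30 RPM in F. bidentis and 3 through 6.5 to 14 RPM in F. robusta (1.58, SE 0.15, adjusted p 2.48e-07). Its groups overlapped between 12 and 14 RPM, yet all 12 pairs were higher in F. bidentis. XTH9 (AT4G03210) averaged 254.4 RPM in F. bidentis and 146.8 RPM in F. robusta in LD (0.74, adjusted p 0.00411). The remaining XTHs of highest mean RPM did not pass in LD: XTH7 averaged 285 RPM in F. bidentis and 314 RPM in F. robusta, XTH28 averaged 217.7 RPM in F. bidentis against 217 RPM in F. robusta, and XTH6 averaged 206.4 RPM in F. bidentis against 184.2 RPM in F. robusta.

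Pectin methylesterases and their inhibitors were split, with 7 of 25 higher and 10 lower in F. bidentis in LD (median -0.21) and 8 higher and 11 lower in LL. After TMM scaling the LL counts were 11 higher and 9 lower. Most of these descriptions name only the invertase and pectin methylesterase inhibitor superfamily, which does not tell an enzyme from an inhibitor. The gene of highest mean RPM, pectin methylesterase 2 (AT1G53830), averaged 383.4 RPM in F. bidentis and 418.2 RPM in F. robusta in LD and did not pass (adjusted p 0.283). The superfamily gene AT1G62760 (185.2 RPM in F. bidentis, 137.7 RPM in F. robusta) and AT5G53370, described as pectin methylesterase PCR fragment F (123.8 RPM in F. bidentis, 91.96 RPM in F. robusta), were modestly higher in F. bidentis, by 0.41 and 0.44 log2 units. Superfamily gene AT5G20740 averaged 37.79 RPM in F. bidentis and 7.5 RPM in F. robusta (log2 difference 1.59, adjusted p 0.000809). The gap was widest at ZT08 and ZT12, and its lowest value in F. bidentis, 5.5 RPM, lay inside the F. robusta range of 4 to 12 RPM.

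Another 4 of these genes were far lower in F. bidentis in LD, each at 11 or 12 of the 12 time points. AT4G02300 averaged 3.33 RPM in F. bidentis and 18.33 RPM in F. robusta (-2.02, adjusted p 1.58e-08), without overlap between 5.5 and 7 RPM. AT5G51490 averaged 4.92 RPM in F. bidentis against 23.5 RPM in F. robusta (-1.63), and its ranges overlapped with 4 RPM at ZT04 of LD day 1 as the lowest F. robusta value. Pectin methylesterase 44 (AT4G33220) averaged 12.96 RPM in F. bidentis against 35.25 RPM in F. robusta (-1.39, SE 0.08), overlapping only between 18.5 and 20 RPM. AT1G23200 averaged 28.96 RPM in F. bidentis against 87.62 RPM in F. robusta (-1.25, adjusted p 4.81e-05), with 11 of 12 pairs lower in F. bidentis.

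Pectin lyase-like proteins, relatives of the enzymes that cleave pectin, leaned towards F. bidentis: 17 of 36 were higher and 12 lower in LD (median 0.21), and 19 were higher and 8 lower in LL (median 0.52, or 0.67 after TMM scaling). AT4G23500 ranged from 17 through 33.75 to 63.5 RPM in F. bidentis and from 5 through 11.25 to 16.5 RPM in F. robusta in LD. Its groups did not overlap there, and the log2 difference was 1.60 in LD (SE 0.14, adjusted p 9.69e-08) and 2.11 in LL (adjusted p 3.17e-10). AT3G61490 ran in parallel with it, at 51.38 RPM in F. bidentis and 18.54 RPM in F. robusta in LD (1.43) and at 68.42 RPM in F. bidentis against 15.73 RPM in F. robusta in LL (2.02). In LL all its F. bidentis means, from 32.5 RPM up, lay above all its F. robusta means, which ended at 28 RPM.

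AT3G53190 (45.38 RPM in F. bidentis, 15.71 RPM in F. robusta) and AT5G41870 (45.33 RPM in F. bidentis, 17.88 RPM in F. robusta) were higher in F. bidentis by 1.41 and 1.29 log2 units in LD, in 12 of 12 pairs each. The lyase-like gene AT3G26610 was listed at 0 in all 12 F. bidentis LD means and reached 0.5 RPM once in LL, whereas F. robusta averaged 3.125 RPM in LD with a peak of 7.5 RPM. Of the 3 lyase-like genes of highest mean RPM, AT4G24780 was higher in F. bidentis in LD (160.2 RPM, against 130.8 RPM in F. robusta; 0.46) and more so by value in LL (1.33), while AT4G23820 (157 RPM in F. bidentis, 144.4 RPM in F. robusta) and AT5G63180 (77.33 RPM in F. bidentis, 75.58 RPM in F. robusta) did not pass in LD. The 2 pectate lyases did not pass in LD but were both higher in F. bidentis in LL, where AT1G67750 averaged 119.6 RPM in F. bidentis and 66.19 RPM in F. robusta (0.91, adjusted p 4.06e-05).

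Among the 7 pectin acetylesterases 2 were higher and 4 lower in F. bidentis in LD. AT4G19410 ranged from 52 through 63.5 to 97.5 RPM in F. bidentis and from 143 through 208 to 291.5 RPM in F. robusta, with no overlap (-1.55, SE 0.11, adjusted p 4.52e-09), and likewise in LL (-1.42). The cellulose synthases differed little: 4 of 7 were lower in F. bidentis in each regime and none was higher, with family medians of -0.21 in LD and -0.24 in LL. In LL after TMM scaling 1 was higher and 2 were lower. Cellulose synthase 10 (AT2G25540) averaged 569.5 RPM in F. bidentis and 675.5 RPM in F. robusta in LD (-0.25, adjusted p 0.00601), lower in 11 of 12 pairs. Cellulose synthase 5 (413.3 RPM in F. bidentis, 450.5 RPM in F. robusta) and cellulose synthase A9 (363 RPM in F. bidentis, 365.2 RPM in F. robusta) did not pass, and both ran in parallel (r 0.984 in F. bidentis), so their reads may be shared. The widest gap was in AT4G18780, described as a cellulose synthase family protein, at 110.1 RPM in F. bidentis against 159.6 RPM in F. robusta (-0.52, adjusted p 7.84e-06).

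The cellulose synthase-like proteins, which make other wall glucans and mannans, gave 6 higher and 4 lower of 16 in each regime. Cellulose synthase-like A02 (AT5G22740) averaged 202.1 RPM in F. bidentis and 111.2 RPM in F. robusta in LD (0.83, adjusted p 3.55e-06). Cellulose synthase-like D3 (AT3G03050) averaged 37.42 RPM in F. bidentis against 66.12 RPM in F. robusta (-0.84, adjusted p 4.45e-06), and cellulose synthase like G3 (AT4G23990) averaged 22.58 RPM in F. bidentis against 48.54 RPM in F. robusta (-1.06, adjusted p 8.08e-05). Each of these 3 genes kept its direction in 12 of 12 LD pairs and 13 of 13 LL pairs.

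On the deposited scale most wall genes cycled in LD and peaked in the dark hours, as most genes did. A rhythm was tested with limma as a cosine and sine of 24 h, and its size is the fitted peak-to-trough span in log2 units. In F. bidentis 85 of 129 members passed (65.9%, background 67.3%), and in F. robusta 96 passed (74.4%, background 65.4%). After TMM scaling 77 and 81 members passed, against backgrounds of 40.6% and 42.1%. The median span of the members that passed was 1.46 in F. bidentis and 1.27 in F. robusta, against 0.962 and 0.985 over all genes that passed. Fitted peaks fell nearest ZT16 or ZT20 for 37 and 32 of the 85 members in F. bidentis and for 33 and 40 of the 96 in F. robusta. That is 81.2% of the F. bidentis members and 76% of the F. robusta members, against 55.2% and 63.5% of all genes that passed. With ZT12 included the shares were 94.1% and 84.4% of members, against 87% and 88.1% of all genes. After TMM scaling 58.4% of the F. bidentis members and 48.1% of the F. robusta members that passed peaked nearest ZT16 or ZT20. The shares of all genes were then 28.3% and 31.1%. With ZT12 included they were 63.6% and 56.8% of members, against 44.9% and 51.7% of all genes. Of the 75 members that cycled in both species, 56 (74.7%) peaked within 2 h of each other, against 71.1% of all genes that cycled in both.

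**Figure D3:**
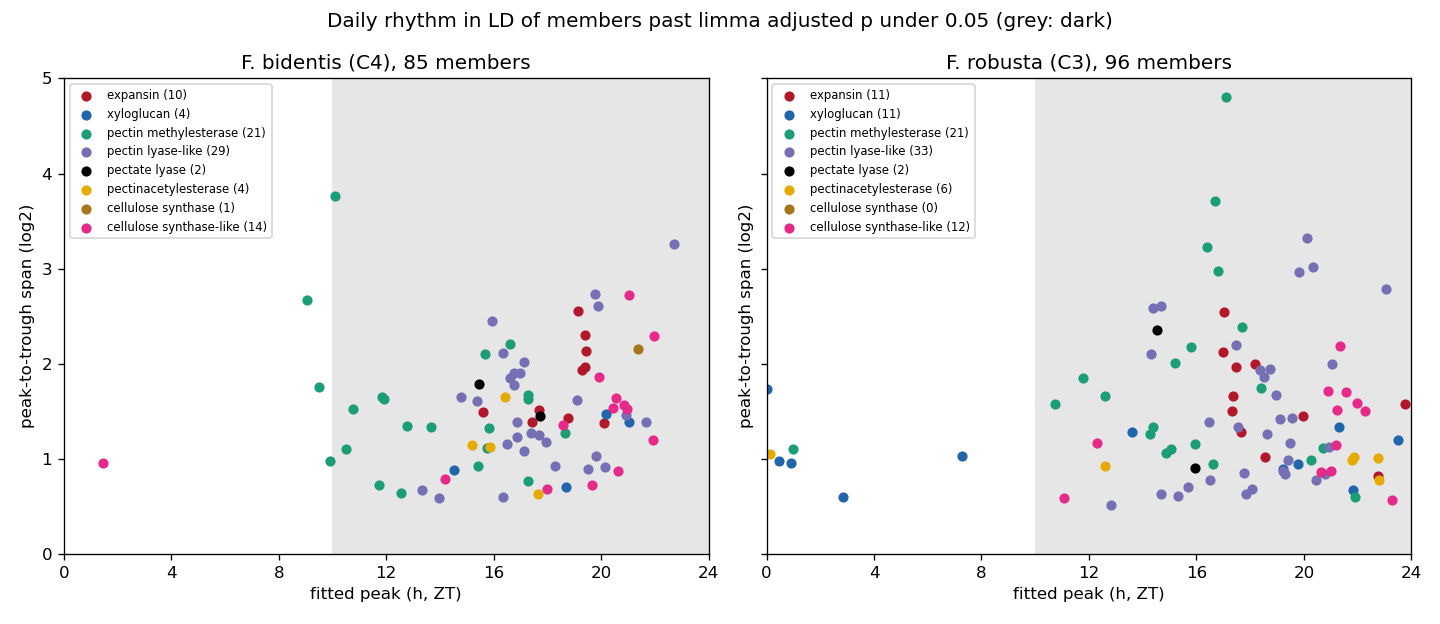
Fitted peak hour (ZT) against peak-to-trough span (log2) in LD of the members that passed limma's adjusted p of 0.05, 85 in F. bidentis on the left and 96 in F. robusta on the right, coloured by family, with the dark hours in grey. Most points lie in the dark; the largest spans are 3.76 for AT5G20740 in F. bidentis and 4.80 for pectin methylesterase 38 in F. robusta.

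Peak hours were counted by family, and the families were not tested against each other. Of the pectin methylesterases that cycled, 9 of 21 in F. bidentis peaked nearest ZT12 and 8 nearest ZT16, and 13 of 21 in F. robusta nearest ZT16. Pectin methylesterase 2 had its F. bidentis peak at 11.9 h (SE 0.52) and its F. robusta peak at 12.6 h (SE 0.43), with spans of 1.63 and 1.66. Among lyase-like proteins 17 of 29 in F. bidentis peaked nearest ZT16 and 19 of 33 in F. robusta nearest ZT20. AT3G53190 climbed to 91 RPM at ZT16 of LD day 1 in F. bidentis from a low of 13 RPM at ZT04, a span of 2.45 (SE 0.17, adjusted p 4.26e-06) peaking at 15.9 h. Superfamily gene AT3G49220 in F. robusta had 193 RPM at ZT16 and 41 RPM at ZT08 of the same day, a span of 2.39 (SE 0.21, adjusted p 7e-06).

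Of the cellulose synthase-like proteins 11 of 14 in F. bidentis, and 8 of the 12 in F. robusta, peaked nearest ZT20, but after TMM scaling 7 of 12 and 11 of 15 peaked nearest ZT00. Of the expansins that cycled, 7 of 10 in F. bidentis peaked nearest ZT20, and 6 of 11 in F. robusta nearest ZT16. Expansin A15 in F. bidentis had 47.5 and 45.5 RPM at ZT04 of both LD days and 183 and 228.5 RPM at ZT20, a span of 2.55 (SE 0.23, adjusted p 3.2e-05). In F. robusta its span was 1.45 (SE 0.21), but the rhythms did not differ beyond the threshold (adjusted p 0.069). Expansin A10 spanned 2.13 in F. bidentis and 2.00 in F. robusta, peaking at 19.4 h and 18.2 h. The lyase-like gene AT1G48100 peaked later still, near 22.7 h with a span of 3.26 in F. bidentis (adjusted p 3.66e-05) and near 23.1 h with a span of 2.78 in F. robusta (adjusted p 3.25e-05).

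A single gene of the cellulose synthase group passed in F. bidentis (span 2.15) and none in F. robusta. It was AT4G15290, described only as a cellulose synthase family protein, which averaged 2.04 RPM in F. bidentis and 1.5 RPM in F. robusta in LD. At so low a level the steps of 0.5 RPM weigh heavily. After TMM scaling 6 and 1 passed, and 5 of those in F. bidentis then peaked nearest ZT04. Of 20 xyloglucan enzymes 4 passed in F. bidentis and 11 in F. robusta. XTH6 (AT5G65730) in F. robusta had 377.5 and 346.5 RPM at ZT00 of the LD days and 99 and 89 RPM at ZT12, a span of 1.73 (adjusted p 4.74e-05). In F. bidentis its span was 0.526 (adjusted p 0.276), and the test of the difference gave an adjusted p of 0.0531. Scaling moved the hours: after TMM scaling the share of members peaking nearest ZT12 or ZT16 was 27.3% in F. bidentis and 23.5% in F. robusta, against 56.5% and 42.7% on the deposited scale. The same shares of all genes that passed were 26.2% and 35.3% after TMM scaling and 72.5% and 72.9% on the deposited scale. For F. bidentis after TMM scaling, 14 of the 77 members that passed peaked nearest ZT00, a smaller share than the 1327 of 5500 among all genes. For F. robusta the members gave 28 of 81, a larger share than the 1267 of 5712 among all genes.

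The rhythm itself differed between the species for 13 members (10.1%, background 9.03%), 8 with the larger span in F. bidentis (background 4.8%) and 5 with the larger span in F. robusta (background 4.23%). Leaving out the F. robusta mean of ZT08 on LD day 2 brought the count of 13 to 7, and leaving out the flatter LD means of both species brought it to 9. Shares of all genes are not given for these settings. Among the 13, AT3G26610 had to differ, since it is listed at 0 in every F. bidentis LD mean. AT5G20740 had 106 and 105.5 RPM at ZT08 of the LD days in F. bidentis and 5.5 RPM at its lowest, whereas F. robusta stayed between 4 and 12 RPM. The spans were 3.76 (peak 10.1 h) in F. bidentis and 1.06 (peak 14.9 h) in F. robusta, with an adjusted p of 0.000237 for the difference. At ZT08 in LL the gene had 109 RPM on day 1 and 17.5 RPM on day 2 in F. bidentis. Pectin methylesterase 38 (AT4G00190) was the reverse case, with spans of 2.10 in F. bidentis and 4.80 in F. robusta (adjusted p 0.0339), reaching 37.5 RPM in F. bidentis and 78.5 RPM in F. robusta at ZT20 of LD day 1.

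The test covers hour and size together. The pectin acetylesterases AT5G23870 and AT4G19410 had F. bidentis peaks of 16.4 h and 17.6 h, against F. robusta peaks of 21.8 h and 21.9 h (adjusted p 0.0017 and 0.00979). All 4 pectin acetylesterases that cycled in F. bidentis peaked nearest ZT16, and none of the 6 that cycled in F. robusta did. After TMM scaling 2 of 6 in F. bidentis peaked nearest ZT16 and 3 nearest ZT04, and all 5 in F. robusta peaked nearest ZT00. Superfamily gene AT1G23205 peaked near 12.6 h in F. bidentis, against 21.9 h in F. robusta, with spans of 0.644 and 0.604 (adjusted p 0.0042). AT3G47400, of the same superfamily, spanned 1.53 in F. bidentis, from 1.5 to 7.5 RPM, and 0.234 in F. robusta, from 0.5 to 1.5 RPM (adjusted p 0.0131). Without the flatter LD means of both species AT4G19410, AT1G23205 and AT3G47400 did not pass (adjusted p 0.108, 0.0993 and 0.193). With all LD means kept, the pectin acetylesterase AT2G46930 spanned 0.104 in F. bidentis and 1.01 in F. robusta (adjusted p 0.0266).

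**Figure D4:**
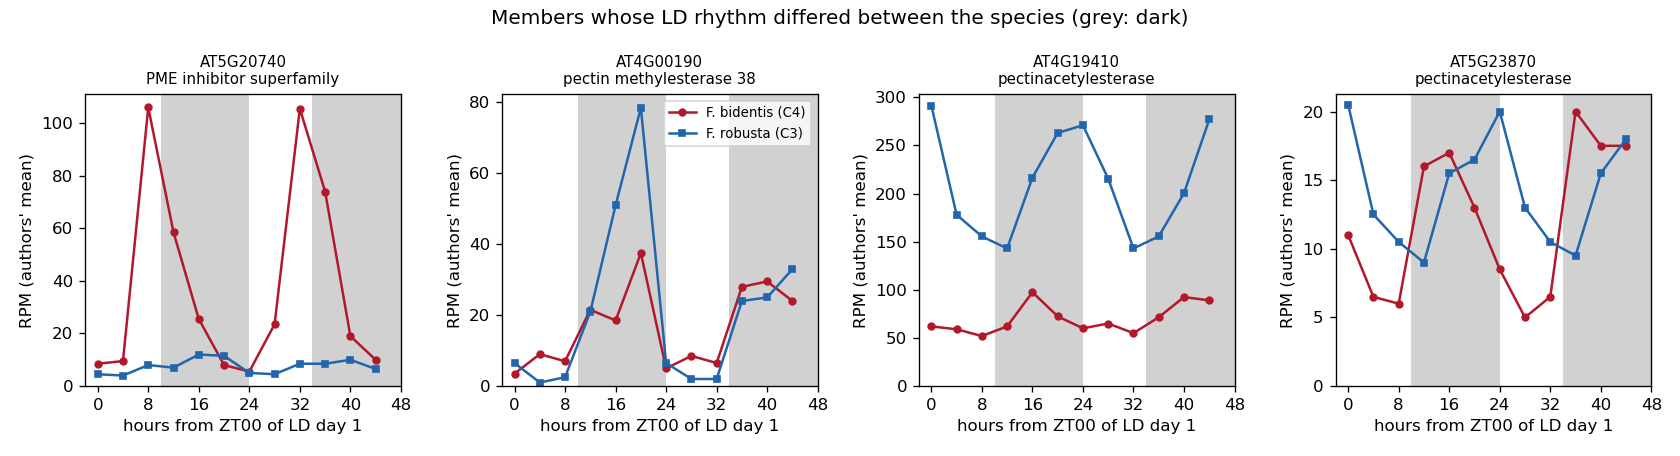
Authors' mean RPM over the 12 LD means of each species, against hours from ZT00 of LD day 1 with dark in grey, for 4 members whose rhythm differed between F. bidentis (red circles) and F. robusta (blue squares). AT5G20740 reaches 106 RPM in F. bidentis and at most 12 RPM in F. robusta, and both pectin acetylesterases turn down earlier in the night in F. bidentis.

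In constant light no member passed the rhythm test with limma in either species, and neither did any other gene (background 0%). At an unadjusted p under 0.05 there were 37 members in F. bidentis and 19 in F. robusta, among 2612 and 1788 of all genes, and after TMM scaling again none passed with adjustment, with 29 and 21 members under that unadjusted p among 1712 and 2149 of all genes. The median range within a day was smallest on LL day 2 in all 8 families in F. bidentis and in 6 of 8 in F. robusta, the exceptions being cellulose synthases and pectate lyases. The median range within a day over the members in F. bidentis was 1.38 and 1.48 log2 units on the LD days, 1.19 on LL day 1 and 0.49 on LL day 2. In F. robusta the same medians were 1.27, 1.39, 1.10 and 0.807. All genes gave 1, 1, 0.807 and 0.434 in F. bidentis, against 1, 1.01, 0.796 and 0.737 in F. robusta, so the members had the wider range on each of the 4 days in both species. Expansin A15 in F. bidentis ranged over 2.08 log2 units or more on each LD day and on LL day 1, and over 0.564 on LL day 2.

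In F. bidentis light during the usual night went with less transcript from several XTHs. Lit nights (ZT12, ZT16 and ZT20 of both LL days) were set against dark nights (the same hours of both LD days), 6 means each. In F. bidentis 45 members passed (34.9%, background 41%), of which 7 were higher in lit nights (background 5.54%) and 38 lower (background 35.4%). The median log2 difference of all genes was -0.21, and after TMM scaling, which removes it, 16 members were higher and 20 lower against backgrounds of 14.5% and 15.5% (30% in all). Among the 20 xyloglucan enzymes 11 were lower and none higher (median -0.65), and 7 were lower and none higher after TMM scaling (median -0.45). In F. robusta 6 of the 20 were lower and none higher (median -0.67), and none passed after TMM scaling (median -0.49).

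XTH9 ranged from 67.5 through 75.5 to 133 RPM in lit nights and from 156 through 259.5 to 520 RPM in dark nights in F. bidentis. The groups did not overlap, and the log2 difference was -1.73 (SE 0.22, adjusted p 0.000144), or -1.49 after TMM scaling. XTH29 (AT4G18990) also parted, with 10.5 through 12.5 to 15 RPM lit and 22 through 25 to 38 RPM dark (-1.04, adjusted p 3.17e-05). XTH33, described as xyloglucan:xyloglucosyl transferase 33 (AT1G10550), averaged 6.42 RPM lit and 17.75 RPM dark (-1.25, adjusted p 0.00116). XTH11 (AT3G48580) had a difference of -1.51, but it ran in parallel with XTH9 (r 0.987 in F. bidentis), so the same reads may count in both. Both epidermis markers tested were also lower in lit nights in F. bidentis, with sums of 129.5 to 214 RPM lit and 238.5 to 312.5 RPM dark, and their part in this result was not tested. In F. robusta XTH9 averaged 66.08 RPM lit and 125.3 RPM dark, XTH33 5 and 18.75 RPM, and XTH11 2.833 and 5.917 RPM. The species differences in lit-night response were -0.90, 0.12 and -0.74, and none passed (limma adjusted p 0.1735, 0.9609 and 0.3468).

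Lyase-like proteins of F. bidentis moved both ways, 5 higher and 11 lower in lit nights, or 8 higher and 7 lower after TMM scaling. AT4G23820 ranged from 78 to 134 RPM lit and from 175 to 263 RPM dark (-1.04, adjusted p 0.000126), and AT5G41870, which ran in parallel with it, differed by -0.99. AT3G61490 was higher, at 86.25 RPM lit and 61.92 RPM dark (0.51, adjusted p 0.014), with overlapping ranges of 66.5 to 119 RPM lit and 35 to 91 RPM dark. AT1G10640 was higher as well, at 26.92 RPM lit and 19.5 RPM dark (0.59, adjusted p 0.012), and AT5G14650, in parallel with it, only just passed (0.48, adjusted p 0.0495). Without the 3 flatter F. bidentis means these 3 genes did not pass, at 0.41 for AT3G61490, 0.21 for AT1G10640 and 0.12 for AT5G14650 (adjusted p 0.0782, 0.2 and 0.525). Of the 16 expansins 4 were lower and none higher, where 35.4% of all genes were lower. After TMM scaling 3 were lower and none higher, where 15.5% of all genes were lower. On the deposited scale expansin A8 averaged 142.7 RPM lit and 297.2 RPM dark (-0.89, adjusted p 0.00465), with overlapping ranges of 99.5 to 193 RPM lit and 94.5 to 481 RPM dark. In F. robusta AT4G23820 averaged 92.08 RPM lit and 185 RPM dark, AT5G41870 11.17 and 23 RPM, and expansin A8 102.2 and 223.8 RPM. The species differences in lit-night response were -0.09, -0.06 and 0.20, and none passed (limma adjusted p 0.9397, 0.9616 and 0.9136).

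**Figure D5:**
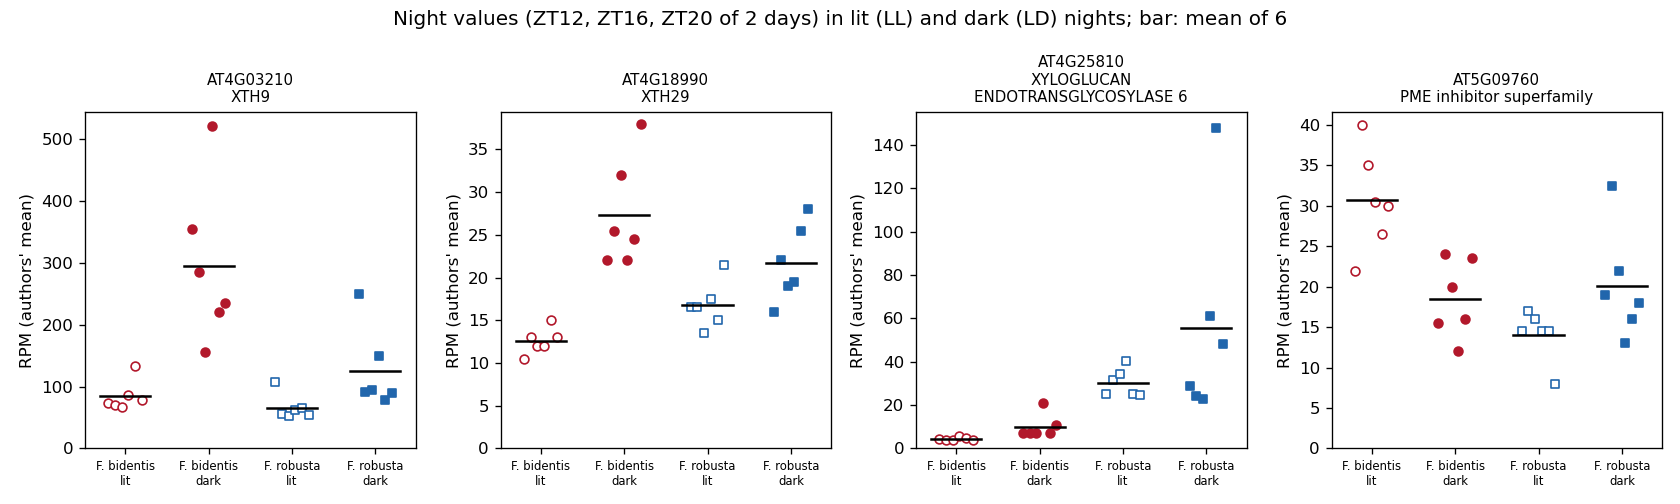
Authors' mean RPM at ZT12, ZT16 and ZT20 in lit nights (open symbols, LL) and dark nights (filled symbols, LD), 6 means each with their mean as a bar, F. bidentis in red circles and F. robusta in blue squares. In F. bidentis XTH9 and XTH29 separate completely, with lit means up to 133 and 15 RPM and dark means from 156 and 22 RPM, while AT5G09760 is higher lit than dark in F. bidentis only by its mean, 30.67 against 18.5 RPM, since the symbols overlap.

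In F. robusta 25 members passed and all were lower in lit nights (19.4%, background 5.01% lower, 1.3% higher and 6.31% in either direction). They were 11 pectin methylesterase or inhibitor genes, 7 lyase-like genes, 6 xyloglucan enzymes and 1 pectate lyase. Superfamily gene AT3G49220 ranged from 55.5 through 64.75 to 75 RPM lit and from 95.5 through 138 to 193 RPM dark, without overlap (-1.10, SE 0.16, adjusted p 0.00467). AT5G51490 averaged 15.5 RPM lit and 39.83 RPM dark (-1.20, adjusted p 0.0177), also without overlap. It ran in parallel with pectin methylesterase 38 (-1.14), which in turn did so with AT1G23200 (-1.08), so the 3 may share reads. AT3G49220 and AT5G51490 were the 2 members that passed after TMM scaling, where the background was 1.51% lower, 2.55% higher and 4.06% in all. The lyase-like genes AT3G27400 and AT4G24780, which ran in parallel, had the widest gaps among the genes that passed, -1.33 and -1.29, and AT4G24780 ranged from 29 to 115.5 RPM lit and from 94.5 to 345.5 RPM dark. Their adjusted p of 0.0464 and 0.0483 became 0.142 and 0.152 after TMM scaling, where the log2 differences were -1.13 and -1.08. In F. robusta 1 of the 2 epidermis markers was lower in lit nights, with sums of 92.5 to 140.5 RPM lit and 138 to 192.5 RPM dark, and its part in these results was not tested.

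The F. robusta count rested on few means. Shares of all genes are not given for the settings that follow, so a loss of calls particular to the members cannot be read from these counts. The count was 0 with the first lit night alone and 6 with the second alone, and 10 without the 6 flatter means, 3 of which are nights of this comparison. Without a single mean it was 3 (LL day 2 ZT16), 6 (LD day 1 ZT16), 7 (LL day 2 ZT12), 9 (LL day 1 ZT20), 10 (LL day 1 ZT16), 13 (LD day 2 ZT16), 14 (LD day 1 ZT12) or 15 (LD day 1 ZT20).

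The difference in lit-night response between the species passed for 1 member (0.775%, background 1.03%, of which 0.28% with the larger value in F. bidentis and 0.752% with the smaller), AT5G09760 of the invertase and pectin methylesterase inhibitor superfamily. It had 22 through 30.25 to 40 RPM lit and 12 through 18 to 24 RPM dark in F. bidentis (0.71, adjusted p 0.00169), and 8 through 14.5 to 17 RPM lit and 13 through 18.5 to 32.5 RPM dark in F. robusta (-0.46, adjusted p 0.164). Lit and dark ranges overlapped in both species. The species difference was 1.17 log2 units (adjusted p 0.0267). With either lit night alone it was 1.04 or 1.31 and did not pass (adjusted p 0.22 and 0.106), and leaving out any of 7 single means also ended the call (adjusted p 0.0516 to 0.0624): LD day 2 ZT12 and ZT16, LL day 1 ZT16 and ZT20 or LL day 2 ZT12 of F. bidentis, and LD day 1 ZT12 or LL day 2 ZT16 of F. robusta. For XTH29 the same test gave -0.70 (adjusted p 0.0829).

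Genes that make wall polymers or control wall growth were set beside the members. Among all genes 32.3% were higher in F. bidentis in LD and 32.5% lower. In LD 2 of 9 pectin synthesis genes were higher in F. bidentis and 2 lower, among them the galacturonosyltransferases GAUT1 (log2 difference 0.39) and GAUT8 (-0.64). Of 7 xyloglucan synthesis genes, 1 was higher and 1 lower, CSLC4 at 0.21 and the xylosyltransferase XXT2 at -0.21. Of 4 partners of cellulose synthase, 3 were lower in F. bidentis, with CTL1 at -0.52 (adjusted p 4.65e-05). Of 6 growth and wall signalling genes, the brassinosteroid factor BES1 was higher by 0.70, and the proton pump AHA1 (-0.78, adjusted p 2.55e-06) and the receptor kinase FERONIA (-0.63) were lower. AHA1 averaged 673.1 RPM over all 25 F. bidentis means and 1309 RPM over the 25 F. robusta means. In LL these lists gave 2 higher and 4 lower for pectin synthesis, 0 and 2 for xyloglucan synthesis, 0 and 4 for the partners and 1 and 5 for signalling. The background was 26% higher and 41.8% lower. After TMM scaling the lists gave 3 and 3, 1 and 0, 0 and 3, and 1 and 4, against backgrounds of 35.4% and 35.8%. In lit nights of F. bidentis 2, 2, 3 and 6 genes of the pectin, xyloglucan, partner and signalling lists were lower and none was higher. Among all genes 35.4% were lower and 5.54% higher there. After TMM scaling 1, 0, 0 and 3 were lower and 1, 0, 1 and 0 were higher, against backgrounds of 15.5% lower and 14.5% higher. In F. robusta 1 gene each of the partner and signalling lists was lower in lit nights (background 5.01%), and none after TMM scaling (background 1.51%).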

How the data were processed

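The values are RPM (reads scaled to a common library total) that the authors computed and averaged over the libraries of each time point, deposited as 50 columns of mean RPM in steps of 0.5. The submitters' processing notes name CASAVA and TAIR10 without a role, and per the labels 12 libraries shared a lane and reads were single, of 100 bp. Neither the aligner nor the matching of reads to Arabidopsis identifiers is given in the sources used here. Another 200 columns per library carry numbers that match no sample title and were not used, so depth and spread between replicates are unknown. Single means therefore carry no interval, and p-values rest on how time-point means scatter about the model, not on how plants vary.

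With limma 3.58.1 in R 4.3.3 (trend and robust settings on), log2(mean RPM + 1) was fitted over all 13563 genes averaging 1 RPM or more, with Benjamini-Hochberg adjustment over all of them and a threshold of 0.05. The pseudocount understates changes of low genes. Rhythms were the F test of a 24 h cosine and sine beside a linear trend, species rhythms were compared by their products with species, levels were compared at matched time points, and lit and dark nights were compared within hour. RPM is not scaled by gene length, so levels of different genes are not compared. TMM factors (trimmed mean of M values, 30% of M and 5% of A trimmed) were computed on the RPM values. Alternatives were TMM, a pseudocount of 0.1, no filter or one at 5 RPM, no trend, an added 12 h term, each lit night alone and each time point left out. The alternatives of leaving out the 6 F. robusta means with under 11% of RPM in their 10 highest genes or all 9 such means, 3 of them of F. bidentis, were chosen after seeing the data. The fits were tested on simulated data.

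The members, lists and tests were chosen with earlier results of these data known. Named are the 3 members of highest mean per family, up to 6 per direction of largest fold reaching 10 RPM in levels and nights, and up to 6 of smallest adjusted p in rhythms and in species differences. Members beyond these, such as expansins A5, A6 and A14, AT5G41870 in LD and AT2G46930, were chosen after their values were seen where the rule did not name them. In the gene lists 7 of 10 xyloglucan synthesis, 9 of 10 pectin synthesis, 4 of 5 cellulose synthase partner and 6 of 12 growth and wall signalling genes were tested. Members whose log2 values had r above 0.9 within a family in both species were taken as possibly sharing reads. Read sharing itself was not tested, and r alone cannot tell shared reads from a like course over time.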

Additional observations from a re-analysis of the deposited data

Results flagged for a closer look

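A test of the species difference itself passed for 14 members, 13 of them in LD rhythm and 1 in the lit-night response. For AT3G26610 the span in F. bidentis minus that in F. robusta was -3.02 log2 units, but the gene is listed at 0 in all F. bidentis LD means and passed the filter through F. robusta, so a difference was fixed in advance and this value is no test. Larger spans in F. bidentis were found for AT5G20740 (2.70), AT3G47400 (1.29), XTH29 (AT4G18990, 0.788), AT5G23870 (0.655), AT3G06830 (0.652), AT4G23500 (0.611), AT2G47550 (0.156) and AT1G23205 (0.0405). Larger spans in F. robusta were found for AT4G00190 (-2.70), AT2G46930 (-0.908), AT2G43050 (-0.521) and AT4G19410 (-0.389). The test covers the hour as well as the size, and for AT1G23205, AT5G23870 and AT4G19410 the F. bidentis peaks came earlier, at 12.6, 16.4 and 17.6 h against 21.9, 21.8 and 21.9 h in F. robusta. The lit-night response of AT5G09760 differed by 1.17 log2 units.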

How the results depend on the processing

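No paired analysis was possible because each group is a single column of means that carries no replicate number; levels were compared at matched time points, which pairs hours and not replicates. Counts of members that passed stayed within 1.5 times of those given for levels in LD and LL, for LD rhythms of each species and for lit nights of F. bidentis, under every alternative run for them; without 1 time point these counts ran from 85 to 92, 95 to 99, 73 to 88, 87 to 95 and 34 to 49. The count of species differences in rhythm, 13, became 21 without a trend, 25 with a 12 h term, 20 without the flatter LD means of F. robusta, 9 without those of both species, and 7 to 18 without 1 time point. The F. robusta count for lit nights, 25, became 2 after TMM scaling, 0 with the first lit night, 6 with the second, 10 without the flatter F. robusta means and 3 to 35 without 1 time point. The species difference in lit nights, 1 member, became 0 with either night alone, 2 without the flatter F. robusta means, 1 without those of both species and 0 to 3 without 1 time point. Apart from TMM scaling, shares of all genes are not given for these alternatives, so changes particular to the members cannot be read from the counts. The span difference of AT1G23205 reversed to -0.50 after TMM scaling (adjusted p 0.0187) and ran from -0.092 to 0.164 without 1 time point. AT3G47400 lost its call with a pseudocount of 0.1 (adjusted p 0.0627), and AT1G10640 and AT3G61490 lost theirs with the second lit night alone (adjusted p 0.0625 and 0.163; log2 differences 0.54 and 0.31). AT5G14650 lost its call with a pseudocount of 0.1, without a filter, with either night alone (adjusted p 0.0513, 0.0594, 0.146 and 0.108) and without any of 8 single means (0.0518 to 0.109). The cause of these changes was not tested. Low members such as AT3G47400 rest on means of a few RPM, where steps of 0.5 RPM limit what can be seen.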
